A study of Homo sapiens with 2 samples.

Results

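Peaks of a PML-RARA antibody were described at the genes of 8 nuclear receptors other than RARA in NB4 cells. The genes are those of the retinoic acid receptors beta and gamma (RARB and RARG), the 3 retinoid X receptors (RXRA, RXRB and RXRG), the vitamin D receptor (VDR), the thyroid hormone receptor alpha (THRA) and the orphan receptor NR4A1. A peak belonged to a gene if it overlapped the gene body or the 20 kb on either side, in hg19 positions that were given to the nearest kb. By this rule 53 of the 20085 peaks of the series belonged to the 8 loci, whose windows together spanned 809 kb.

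The cells, an established line from acute promyelocytic leukemia in which PML is fused to RARA, had no stated treatment. Binding was profiled with CUT&Tag, in which an antibody tethers a transposase that cuts and tags the DNA nearby, in 2 replicates that make up 1 group. The authors deposited 1 peak list merged from both, so no value per replicate, no spread between replicates and no test across samples can be given, and a control library was not used here. Neither the depth of sequencing nor the scaling of the signal is known. The total signal of a peak is the authors' coverage summed over its bases, the maximum is its highest coverage, and both are peak values on a scale of their own that serve here only to describe and rank peaks within this list. Over the whole list the median total was 6479 (interquartile range 3755 to 13912), the median maximum 22 and the median length 893 bp.

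Nuclear receptors are transcription factors that bind short DNA hexamers, often as pairs. Retinoic acid receptors, the vitamin D receptor and the thyroid hormone receptors commonly bind direct repeats of the hexamer together with a retinoid X receptor, and the spacing between the repeats differs with the partner. In the fusion protein the DNA-binding and ligand-binding parts of RARA are kept, and retinoid X receptors are known partners of it. Retinoic acid drives promyelocytes toward granulocytes, and RARB is a textbook retinoic acid target through a direct repeat in its promoter.

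The promoter sequences of 4 members are shown, picked from 7 with a listed promoter. RARB and RXRG had no peak near the gene start, while RXRB and NR4A1 had a peak over the start as given to the nearest kb. RARG, RXRA and THRA, which also had a peak within 2 kb of the start, are not shown. Each sequence shown is the 250 bases upstream of a RefSeq start in GRCh38.p14, read 5′ to 3′ on the strand of the gene. Capitals mark every match to the hexamers AGGTCA or AGTTCA or GGGTCA or GGTTCA on either strand. RARB lies on the plus strand at chr3:25428013-25428262, RXRG on the minus strand at chr1:165445127-165445376, RXRB on the minus strand at chr6:33200666-33200915 and NR4A1 on the plus strand at chr12:52022582-52022831.
RARB: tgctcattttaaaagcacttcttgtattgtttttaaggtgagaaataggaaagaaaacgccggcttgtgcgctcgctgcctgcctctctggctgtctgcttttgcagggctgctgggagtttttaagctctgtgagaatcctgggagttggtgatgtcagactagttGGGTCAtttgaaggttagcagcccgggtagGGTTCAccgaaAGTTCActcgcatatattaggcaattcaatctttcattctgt
RXRG: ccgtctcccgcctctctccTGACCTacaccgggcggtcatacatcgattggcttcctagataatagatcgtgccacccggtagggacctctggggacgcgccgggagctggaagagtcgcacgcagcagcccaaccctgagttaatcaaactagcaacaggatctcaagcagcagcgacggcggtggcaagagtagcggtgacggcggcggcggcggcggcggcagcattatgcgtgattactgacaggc
RXRB: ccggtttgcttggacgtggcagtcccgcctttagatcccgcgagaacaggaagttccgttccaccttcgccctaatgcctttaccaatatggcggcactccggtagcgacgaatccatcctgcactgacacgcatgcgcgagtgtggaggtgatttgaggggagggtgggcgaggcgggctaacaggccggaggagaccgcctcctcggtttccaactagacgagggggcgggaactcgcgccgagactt
NR4A1: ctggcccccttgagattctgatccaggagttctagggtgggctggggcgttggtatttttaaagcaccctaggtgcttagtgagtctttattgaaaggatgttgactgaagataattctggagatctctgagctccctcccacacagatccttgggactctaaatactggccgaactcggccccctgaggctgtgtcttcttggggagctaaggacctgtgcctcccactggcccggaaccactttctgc

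Among the 7 members with a promoter in the table, all but VDR, only RARB held a direct repeat of these hexamers at the start used, with a spacer of 0 to 8 bases. For RARB this is the 1 of 4 listed starts that matches its hg19 gene length. Its repeat, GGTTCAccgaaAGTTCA, has a spacer of 5 bases and begins at position -53 from the start. A repeat with this spacer was found in 31 of 35116 promoters of the table (0.0883%), each searched over 300 bases on both strands, and a repeat with any of the spacers in 269 (0.766%). At least 1 hexamer was found in 38.6% of these promoters. RARB had 3, RXRG had 1 and none was found at the starts used for RARG, RXRA, RXRB, THRA and NR4A1. The THRA start used gave a gene length of 30.9 kb, against 32 kb in the rule. The hexamer counts depended on the start. Another listed RXRA start held 1 hexamer (GGGTCA at -236), and the other RARB starts held 0, 1 and 1, without a repeat. Other starts of RXRB and NR4A1 held none. These are matches of letters in a short window, and no peak of the list lay at the RARB start that holds the repeat.

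The 8 loci fell into 5 with peaks and 3 with none. NR4A1 had 19 peaks, RXRA 13, THRA 10, RARG 7 and RXRB 4, while RARB, RXRG and VDR had 0. Of 258 sampled protein-coding genes, 66.3% held a peak in the gene body and 20 kb on each side. The count of 5 of 8 was near that background. The source of these genes names no build, and their positions were taken as hg19. The median density over all 8 members, the 3 at 0 included, was 8.48 peaks per 100 kb, and over all 258 sampled genes, the 87 without a peak included, it was 1.24 (interquartile range 0 to 3.55). Among loci with at least 1 peak, the 5 receptor loci had 8.44 to 25 peaks per 100 kb, and the 171 sampled genes had a median of 2.57 (interquartile range 1.27 to 5.82). Over all 8 windows there were 6.55 peaks per 100 kb, 9.91 times the 0.661 of chromosomes 1 to 22 and X, and peaks covered 9.50% of the windows against 0.779% of those chromosomes.

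**Figure D1:**
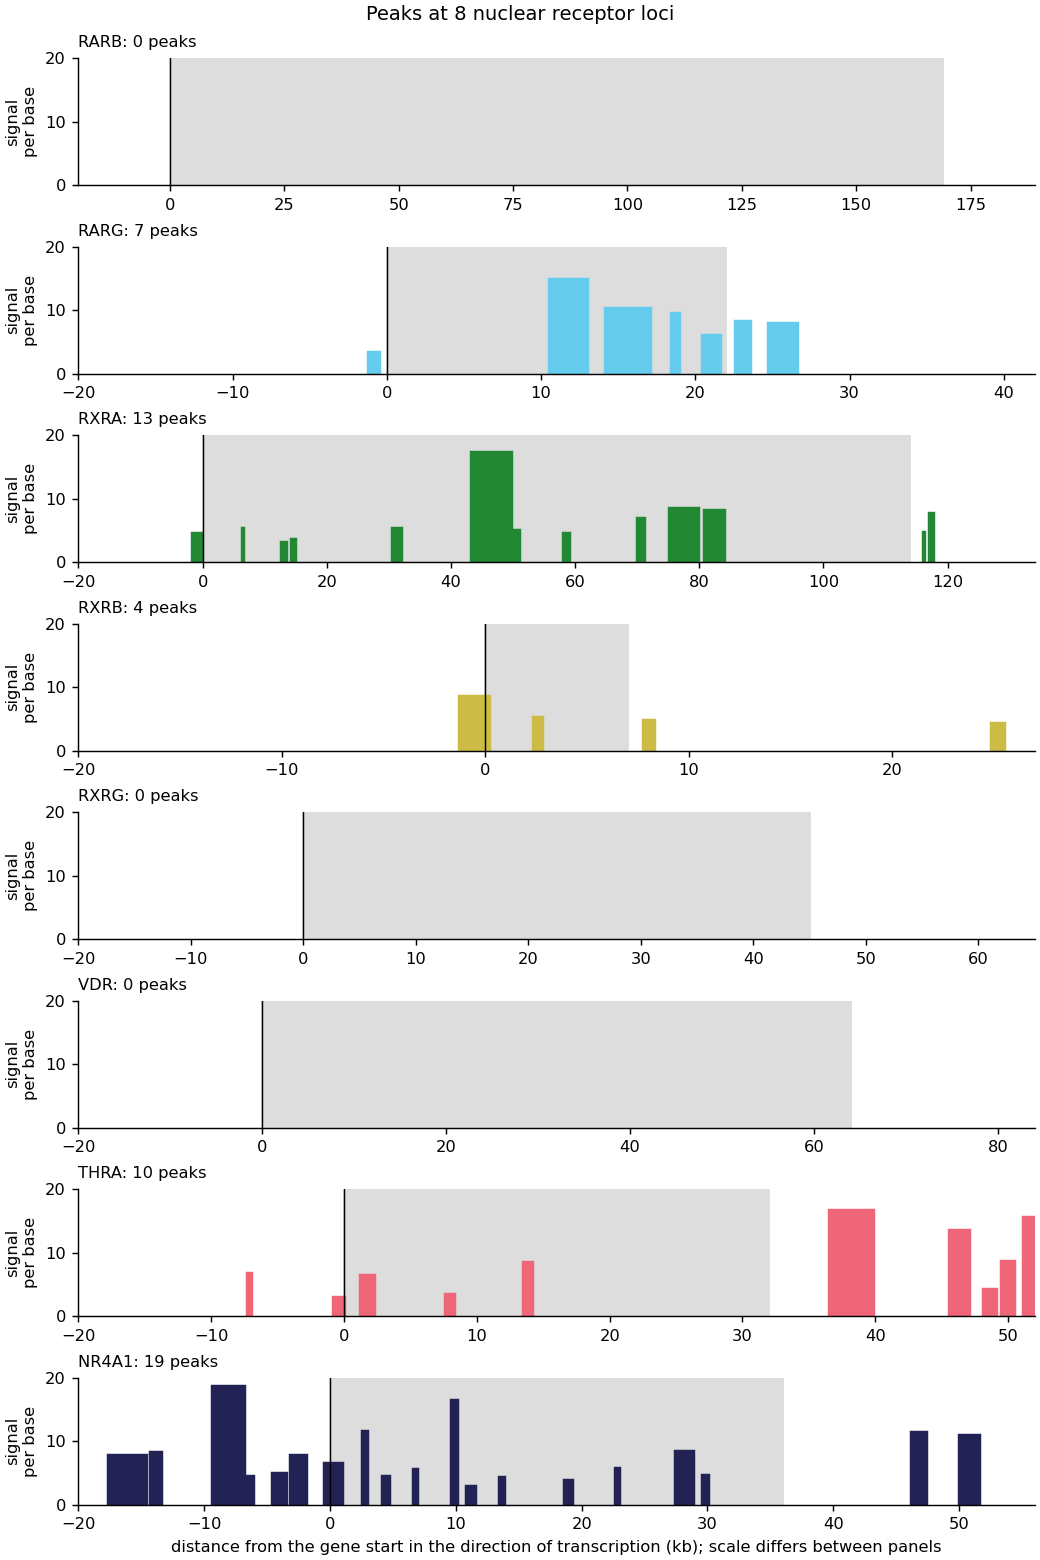
Peaks at the 8 loci, with the distance from the gene start along the gene (kb) on the horizontal axis and the mean signal per base of each peak on the vertical axis. The grey area is the gene body, bar width is peak length, and the panels of RARB, RXRG and VDR hold no bar while NR4A1 holds 19.

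**Figure D2:**
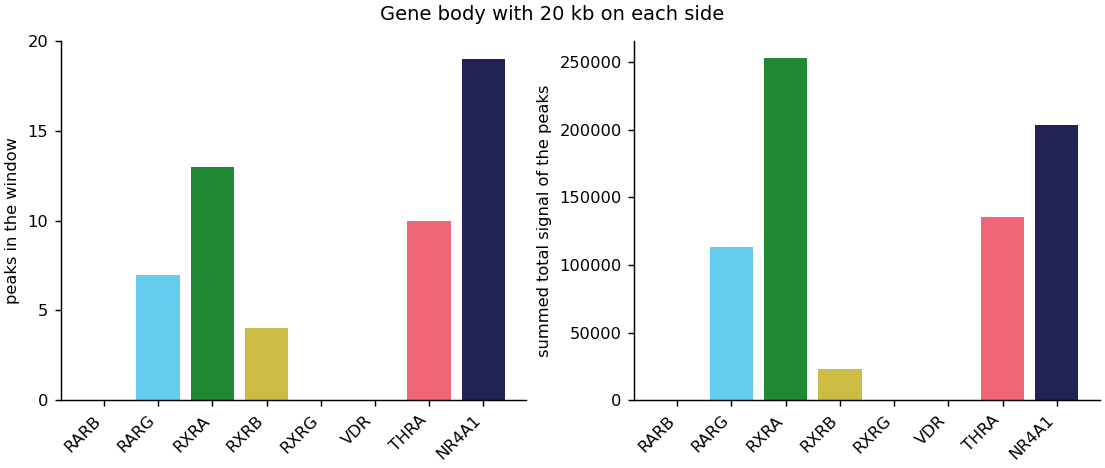
Number of peaks (left) and summed total signal (right) in the window of each gene, 1 bar per locus. NR4A1 had the most peaks (19), RXRA the highest summed signal (252660), and 3 loci are at 0 in both panels.

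The sum of total signal gave another order than the count. RXRA had 252660, NR4A1 203666, THRA 135302, RARG 113054 and RXRB 23125. RXRA and NR4A1 thus held 34.7% and 28.0% of the summed signal of the member peaks. This order depended on the flanks. With the gene body alone RXRA had 234082, RARG 84882, NR4A1 62961, THRA 20883 and RXRB 16711. By the maximum of its highest peak THRA came first with 135, followed by NR4A1 with 88, RXRA with 81, RARG with 55 and RXRB with 40. The peaks of 135 and 88 lay outside the gene bodies, past the 3′ end of THRA and upstream of NR4A1. In gene bodies alone, the highest maximum was 81 at RXRA, 57 at NR4A1, 55 at RARG, 40 at RXRB and 30 at THRA. Over the whole windows RXRB, the shortest gene of the 8, was last by each of these measures among the loci with peaks.

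The member peaks were of ordinary strength. Their median total was 6799 (interquartile range 3102 to 13710) and their median maximum 18, beside 6479 and 22 in the whole list. Of the 53 peaks 29 (54.7%) reached the list's median, where 50% of all peaks do by construction, while 6 (11.3%) were in the top 10% of the list and 8 (15.1%) in the bottom 10%. The members' median length was 1111 bp.

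**Figure D3:**
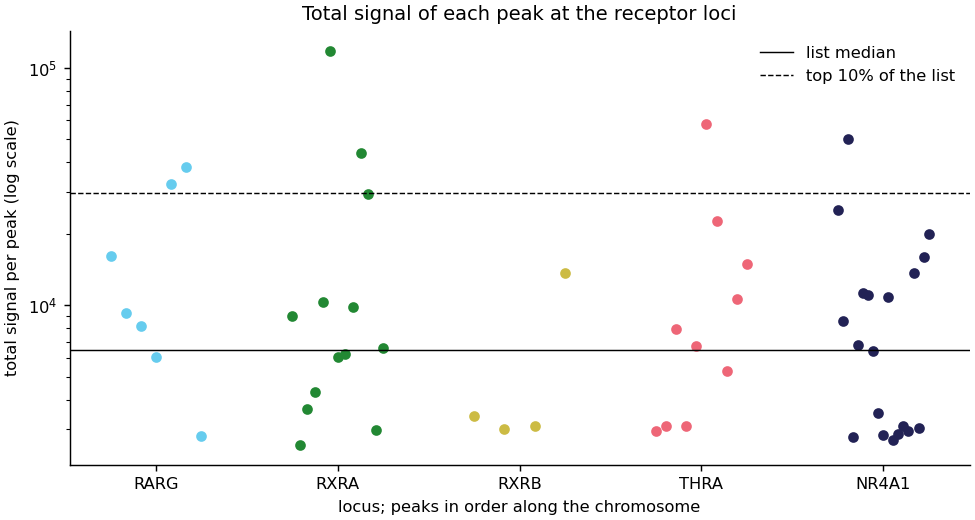
Total signal of each of the 53 peaks on a log scale, by locus and in order along the chromosome, with lines at the list's median and at its top 10%. Each of RARG, RXRA, THRA and NR4A1 has 1 or 2 peaks above the dashed line, RXRB has none, and many NR4A1 peaks lie near the lower end.

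The retinoic acid receptor genes differed from each other. RARB, which encodes the beta receptor, had no peak in its 209 kb window on chromosome 3 (25450000 to 25659000). Its gene body sat in a stretch of 1718 kb between peaks, longer than 98.2% of the 20049 gaps between neighbouring peaks of the list. The nearest peak to the RARB start lay 236 kb downstream at chromosome 3, 25706116 to 25707265, with a total of 11671 and a maximum of 39. In the GRCh38 gene table TOP2B, a DNA topoisomerase gene, adjoins the end of RARB. On the upstream side the next peak was 1482 kb from the gene, at 23987192 to 23988032, with a total of 6946. Windows of 209 kb held a peak in 33.3% of 14515 cases along the chromosomes, and 10 of 27 sampled genes with a window at least as long did (37.0%). A long window without a peak was therefore common in this list, and of the 87 sampled genes without a peak 50.6% sat in a shorter gap than RARB.

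RARG, which encodes the gamma receptor, held 7 peaks in its 62 kb window, or 11.3 per 100 kb, more than 93.8% of all sampled genes and 90.6% of those with a peak had. Its strongest peaks lay inside the gene, in the part toward its 3′ end. The first, at chromosome 12, 53612979 to 53615540, was centred 11.7 kb from the gene start and had a total of 38393 and a maximum of 55, rank 1397 of the list by total. The next, at 53608861 to 53611945, had a total of 32311 and a maximum of 45. Another 4 peaks followed toward and past the 3′ end with totals of 6029, 8149, 9294 and 16077. Together these 6 formed a run of 16.2 kb with gaps of at most 10 kb. The peak nearest to the RARG start, within 1 kb of it at 53626474 to 53627262, was the weakest of the locus, with a total of 2801 and a maximum of 9. No peak was listed over the 10.9 kb between it and the strongest. The window also holds the 3′ neighbour ITGB7, a leukocyte integrin subunit, and ZNF740 in the GRCh38 table. LOC122455340, the next gene upstream of RARG, and SLC61A1 are in it too. Peaks, that near the start included, were not assigned between these genes and RARG. Windows of 62 kb held a peak in 18% of cases along the chromosomes.

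Of the genes of the retinoid X receptors, the shared partners of many nuclear receptors, 2 held peaks and 1 held none. RXRA, the alpha receptor gene, had 13 peaks in 154 kb, 10 of which overlapped the gene body, and its 8.44 peaks per 100 kb exceeded those of 89.5% of all sampled genes and 84.2% of those with a peak. A single peak at chromosome 9, 137261082 to 137267806, carried 46.6% of the signal of the locus, with a total of 117760 and a maximum of 81. It was the strongest of all member peaks, ranked 188 of 20085 by total and 94 by length (6724 bp), and was centred 46.4 kb downstream of the start, within the gene. A pair of peaks further along, at 137292931 to 137297989 (total 43956, maximum 43) and 137298595 to 137302075 (total 29322, maximum 31), brought the share of the 3 strongest to 75.6%. The other 10 had totals of 2578 to 10340. A peak at 137216070 to 137217979, with a total of 8987 and a maximum of 11, ended at about the RXRA start, which is known only to the nearest kb. This peak was long and low, with 4.71 signal per base against a median of 7.53 in the list. No peak was listed over the 31.7 kb that ended at the first peak past the 3′ end, at 137333793. Windows of 154 kb held a peak in 28.8% of cases, and 98.8% of them had fewer peaks than RXRA.

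RXRB, the beta receptor gene in the major histocompatibility region of chromosome 6, had 4 peaks in 47 kb, or 8.51 per 100 kb, also more than 89.5% of all sampled genes and 84.2% of those with a peak had. The strongest, at 33167769 to 33169322, lay over the gene start as given to the nearest kb. It had a total of 13613, which was 58.9% of the signal of the locus, and a maximum of 40. It was the only case among the 5 loci in which the peak with the highest total lay within 2 kb of the start. The other 3 had totals of 3005, 3098 and 3409, all below the list's lower quartile. One of them, at 33142434 to 33143194, lay only 1.43 kb inside the window, and a peak of total 8887 lay 1.80 kb outside it. The genes SLC39A7, a zinc transporter gene, HSD17B8, RING1 and COL11A2 share the RXRB window in the GRCh38 table, and SLC39A7 is the next gene upstream. Assignment of peaks between them and RXRB was not made. Windows of 47 kb held a peak in 15.1% of cases. RXRG, the gamma receptor gene, had no peak in its 85 kb window on chromosome 1 (165350000 to 165435000), where 21.5% of like windows had one, as did 65 of 108 sampled genes with a window at least as long (60.2%). The nearest peak lay 185 kb upstream of its start (165599885 to 165600873, total 5148), and the next on the other side was 680 kb from the gene. No other gene lies in the RXRG window in the GRCh38 table.

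VDR and THRA, whose products both pair with retinoid X receptors, had 0 and 10 peaks. VDR, the vitamin D receptor gene, had no peak in its 104 kb window on chromosome 12 (48215000 to 48319000), where 23.8% of like windows had one, as did 45 of 81 sampled genes with a window at least as long (55.6%). This count depended on the edge of the window: a weak peak at 48214063 to 48214648 (total 2758, maximum 10) lay 0.352 kb outside it, beyond the 3′ end of the gene. With a flank of 50 kb VDR had 6 peaks. Within 100 kb of the gene, 13 peaks with a summed signal of 181160 lay on the 3′ side, where HDAC7, a histone deacetylase gene, is the next gene of the GRCh38 table, and 0 lay on the 5′ side. The start of VDR was 84.4 kb from the nearest peak.

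THRA, the thyroid hormone receptor alpha gene, had 10 peaks in 72 kb, or 13.9 per 100 kb, more than 96.5% of all sampled genes and 94.7% of those with a peak had. Most of the signal lay past the 3′ end. The strongest peak, at chromosome 17, 38254446 to 38257875, began 4.45 kb beyond the gene and had a total of 58047 and a maximum of 135, rank 714 by total and 513 by maximum. The other 4 peaks on this side had totals of 5269, 10614, 14856 and 22680. NR1D1, which encodes the circadian repressor REV-ERB alpha, overlaps the 3′ end of THRA on the opposite strand and shares the window in the GRCh38 table with MED24, a Mediator subunit gene. Peaks were not assigned between these genes and THRA. Within 2 kb of the THRA start, which is known only to the nearest kb, lay 2 peaks. One at 38217114 to 38218066, with a total of 3102 and a maximum of 7, ended just past the start as given. The other, at 38219128 to 38220326, had a total of 7915 and a maximum of 17. The 4 peaks that overlapped the gene body had totals of 3102 to 7915, so the whole of THRA itself held less signal than the single peak past its end. Windows of 72 kb held a peak in 19.5% of cases. With a flank of 10 kb the count at THRA was 6, and with the gene body alone it was 4.

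NR4A1 encodes Nur77, an immediate early orphan receptor that can also pair with retinoid X receptors. It had 19 peaks in 76 kb, or 25 per 100 kb. Only 2 of the 258 sampled genes (0.775%) reached this density, and 0.0325% of 39942 windows of the same length held as many peaks, where 20.1% held at least 1. Of the 19 peaks 17 stood in 1 run of 47.9 kb, at chromosome 12, 52399243 to 52447113, and 29 of 11245 runs in the list had as many. The strongest peak held 24.7% of the signal of the locus and the 3 strongest 46.8%.

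The strongest NR4A1 peak lay upstream of the start, at 52407536 to 52410207, with a total of 50231 and a maximum of 88, centred at -8.13 kb from the start. A second upstream peak, at 52399243 to 52402412, had a total of 25181. The start was covered by a peak at 52416429 to 52418060 with a total of 11043 and a maximum of 14. Another upstream peak ended 1.83 kb from the start as given to the nearest kb (total 11228, maximum 46). RefSeq lists 2 starts for NR4A1, and positions here are measured from the start of the rule only. Inside the gene a short, tall peak of 651 bp at 52426554 to 52427205 had a total of 10784 and a maximum of 57. Of the other 9 peaks in the gene body 7 had totals of 2719 to 3531, below the lower quartile of the list. The strongest of the 9, at 52444347 to 52445941, had a total of 13710 and a maximum of 28, the highest total in the gene body. Past the 3′ end there were peaks of total 15935 and 19944. TAMALIN and ATG101, an autophagy gene, flank NR4A1 and share its window in the GRCh38 table. Peaks were not assigned between them and NR4A1. The gene body alone held 11 peaks with a summed signal of 62961, against 203666 in the window.

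**Figure D4:**
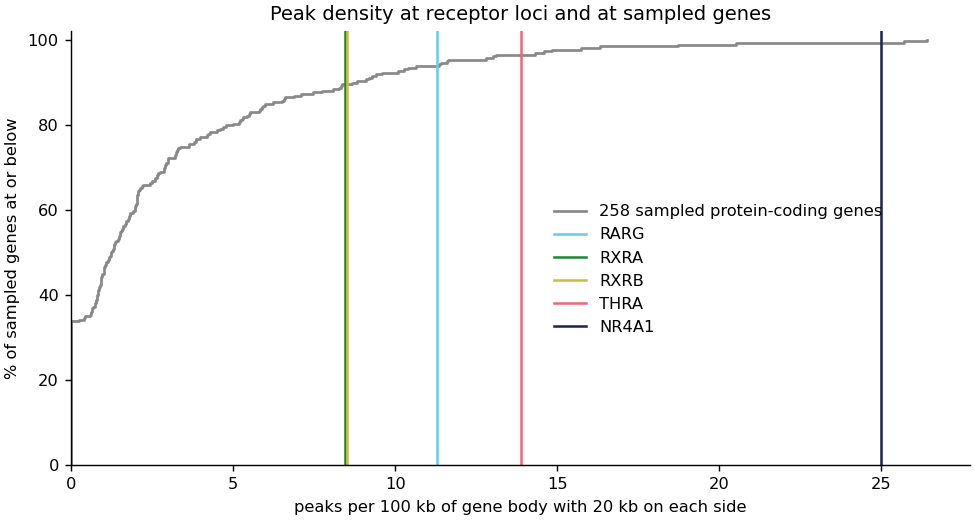
Peaks per 100 kb at the 5 receptor loci with peaks (vertical lines) over the cumulative share of 258 sampled protein-coding genes (grey line). RXRA and RXRB lie almost on each other at 8.44 and 8.51, and NR4A1 at 25 lies near the end of the grey line.

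All 5 loci with peaks had one within 2 kb of the gene start, and the 3 without had their nearest peak 84.4 to 236 kb away. In the sampled genes 47.3% had a peak that close to the start, so the count of 5 of 8 was again near the background. The 7 peaks near a start had a median total of 8987 and the other 46 a median of 6685. At RARG, RXRA, THRA and NR4A1 the strongest peak was not at the start. It lay in the gene body at RARG and RXRA, upstream at NR4A1 and downstream at THRA. By place, 31 peaks overlapped a gene body, 9 lay upstream and 13 downstream, with median totals of 6243, 8595 and 10614.

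The members lay in 7 cytogenetic bands of hg19, since NR4A1 and RARG share 12q13.13, and 6 of the 7 had more peaks per Mb than the median of 784 bands (3.44). That median was not matched for gene content. The band of THRA, 17q21.1, had 50 per Mb, that of RARG and NR4A1 38.8, that of RXRA, 9q34.2, 38.7 and that of RXRB, 6p21.32, 22.9. The bands of VDR (12q13.11) and RXRG (1q23.3) had 8.52 and 7.60 per Mb, and that of RARB (3p24.2) had 1.60. These values hold the members' own peaks, and 10 of the 15 peaks of 17q21.1, a band of 0.3 Mb, are those of the THRA window. Outside the member windows the bands had 21.9 (17q21.1), 32.5 (12q13.13), 33.4 (9q34.2) and 20.7 (6p21.32) peaks per Mb, and 8.86, 7.73 and 1.75 in those of VDR, RXRG and RARB. The 3 loci without a peak stood in the 3 member bands with the lowest peak density on either count. This density was not held fixed in any comparison above, and its part in the counts was not tested.

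Widening the flank filled the loci unevenly. With 300 kb on each side of the gene, NR4A1 reached 43 peaks, RARG 31, THRA 29, RXRA 26, RXRB 24 and VDR 16, while RARB and RXRG each had 2. VDR was thus a gene without peaks beside a neighbourhood with many, whereas RARB and RXRG had few on either side.

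**Figure D5:**
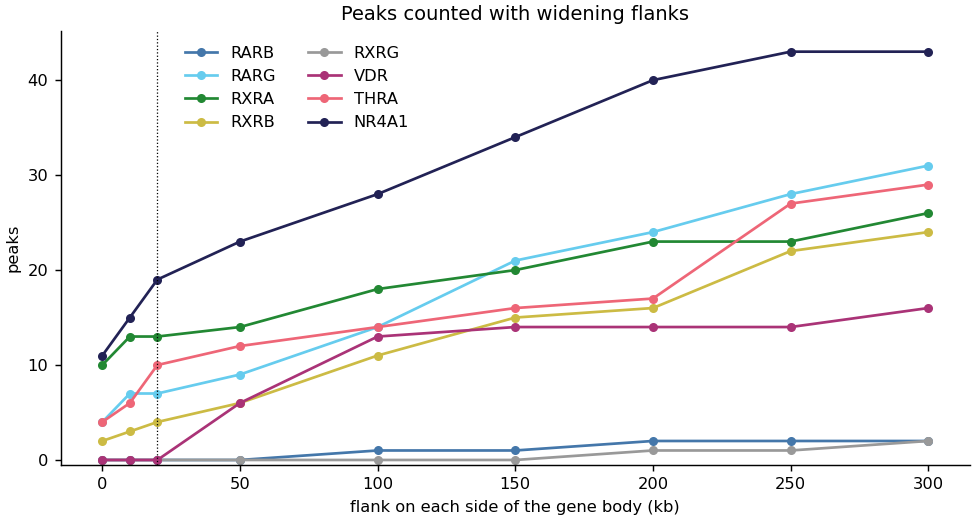
Number of peaks (vertical axis) against the flank added to each side of the gene body in kb (horizontal axis), 1 line per gene, with a dotted line at 20 kb. VDR rises from 0 to 13 peaks between 20 and 100 kb, and RARB and RXRG stay at 0 to 2 up to 300 kb.

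Other nuclear receptor genes could be placed by band alone. Of 40 on the list, 38 lay in bands of like length in both builds, in 36 distinct bands, and 22 of these 36 had more peaks per Mb than the median band. The share of bands of other genes above that median was not computed, so the count is not read as a trait of receptor genes. The highest were those of ESRRA (11q13.1, 90.8 per Mb), an estrogen-related orphan receptor, NR1H2 (19q13.33, 52.9), the oxysterol receptor LXR beta, and NR2F6 (19p13.11, 47.8). The lowest were those of PGR (11q22.1) and NR3C2 (4q31.23), the progesterone and mineralocorticoid receptors, with no peak listed, and NR4A2 (2q24.1, 0.204), a close relative of NR4A1. The fusion partner RARA lay in a band of 26.4 per Mb. Each band spans many other genes, and no peak is assigned to a receptor by these values.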

How the data were processed

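CUT&Tag with a PML-RARA antibody was done in 2 replicates of NB4 cells. Per the submitters' processing notes the build was hg19. They name SEACR, a peak caller, along with Bowtie2, Trimmomatic, bedtools and SAMtools, with no version, role or order. The SEACR threshold, any control and how replicates were merged are details not given in the sources used. The signal values are the authors' own: the deposited column named width was read as a peak's total signal, because in all 20085 rows it is above the peak's length and at most that length times the value in the column named peak, which was read as the maximum. Positions are printed as listed, and starts may count from 0. Gene positions came with the rule, to the nearest kb, and their lengths matched the GRCh38 gene table within 1 kb, for RARB from 1 of its 4 listed starts.

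Windows of each member's length were laid end to end over chromosomes 1 to 22 and X (lengths from GenomeInfoDb 1.38.1). The sampled genes are an example set in pyranges 0.1.4 that names no build: of 390 genes, 258 were protein-coding, on their own chromosome and of like length in RefSeq. A peak lay within 2 kb of the start in 122 of them, against 22 and 18 after shifts of 100 kb down and up, and in 11 of 15 neighbouring pairs the offset to GRCh38 was within 2 kb of that in a labelled hg19 sample (GenomicFeatures 1.54.1). They are no random draw of genes. Bands came from circlize 0.4.16; other receptors were placed in GRCh38 bands and matched by band name, leaving out bands that differ in length by over 10%. Promoters are those of RefSeq. Counting and motif search were tested on simulated data. The genes named are the 8 members, with the strongest peak, those within 2 kb of the start and the nearest, and for other receptors the 3 highest and 3 lowest bands; other peaks and neighbours were named after their values were seen. Members and lists were chosen with earlier results of these data known. Alternatives varied the flank, the start window, the signal threshold, the overlap, merging and the windows compared.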

Additional observations from a re-analysis of the deposited data

How the results depend on the processing

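The count of 53 member peaks fell to 31 with the gene body alone and to 29 with only peaks at or above the median total signal of the list, and it stayed within 1.5 times with flanks of 10 kb (44) or 50 kb (70), with midpoints in the window (53) and after merging peaks with gaps of at most 1 kb (40). The number of loci with a peak was 5 in these alternatives except for 6 with a flank of 50 kb, where VDR gained peaks. Loci with a peak near the start numbered 5 with windows of 1 and 5 kb and 4 with the stronger peaks only, where RARG dropped out. The ratio of peak density to the chromosomes ranged from 8.21 to 10.8. The 95% exact binomial interval of the main value was 7.43 to 13.0. This interval covers counting error only and treats neighbouring peaks as independent, while 51 of the 53 had another peak within 10 kb. The alternatives share peaks with the main count, so their lying within the interval is no separate support. At the 5 loci with peaks, counts per locus stayed within 1.5 times in 21 of 30 values and moved in 9, and at the other 3 loci the count was 0 in 17 values and changed with the flank of 50 kb at VDR. With the gene body alone the summed signal fell from 203666 to 62961 at NR4A1 and from 135302 to 20883 at THRA. RARG, with 84882, then stood above both. Among windows with at least 1 peak, RXRB had more peaks than 84.9%, against 97.7% of all windows. Leaving out windows on centromeric, variable and stalk bands, an alternative chosen after seeing the data, gave 97.5% there. No paired analysis was possible because there is 1 group and 1 merged list, and leaving out a replicate was not run for the same reason. Depth is unknown, so a gene without a listed peak may hold signal below the authors' threshold.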

Other observations

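The band of RARB, 3p24.2, also holds THRB and NR1D2, which encode the thyroid hormone receptor beta and REV-ERB beta, the paralogs of THRA and NR1D1. With 4 peaks (1.60 per Mb) it stood at rank 529 of 784, while the band of THRA on chromosome 17 had 15 peaks (50 per Mb) and stood at rank 10, with 10 of the 15 in the THRA window itself and 21.9 per Mb outside it. Of the NR4A receptors, NR4A1 lay in a band of 38.8 peaks per Mb, NR4A3 (9q31.1) in one of 2.32 and NR4A2 (2q24.1) in one of 0.204. Outside the windows of NR4A1 and RARG, the band of NR4A1 had 32.5 per Mb. The groups of paralogs were picked after their values were seen, and no test was made.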
